A study of Mus musculus with 8 samples.

Results

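Gene deserts are long stretches of chromosome without a protein-coding gene. The regions described here are the autosomal regions with altered 5-hydroxymethylcytosine (5hmC) in Ogt-deleted mouse embryonic stem cells whose midpoint lay outside every protein-coding gene span and more than 150 kb from the nearest end of one, in the mm10 build with RefSeq genes. They number 1174 of 12520 autosomal regions, and of 12594 regions over all chromosomes, in the 2 lists that the authors deposited. One list is named for higher and the other for lower 5hmC in the knockout, and that name is the direction used throughout. Of the desert regions, 790 were in the higher list and 384 in the lower list.

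5hmC was measured by CMS-IP, in which 5hmC is converted with bisulfite to cytosine 5-methylenesulfonate and the DNA carrying it is captured with an antibody and sequenced. The cells were Ogt fl/fl embryonic stem cells grown over mitomycin-treated mouse embryonic fibroblasts. Ogt iKO cells received 4-hydroxytamoxifen (4OHT) for 6 days and were sorted as YFP-positive, and control cells carried the same floxed alleles without 4OHT, so that the drug and the deletion go together. Each genotype gave 2 CMS-IP and 2 input samples, 8 in all. The labels number the replicates and do not name separate cultures. The lists hold a chromosome, a start and an end for each region and no value for any sample, so the size of a change, the depth behind it and the spread between replicates are unknown here, and the deletion itself could not be checked in them.

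TET enzymes oxidise 5-methylcytosine to 5hmC, and in embryonic stem cells 5hmC is found at enhancers and in gene bodies. OGT attaches N-acetylglucosamine to serines and threonines of nuclear and cytoplasmic proteins and binds TET proteins. Gene deserts often flank genes for transcription factors and for cell adhesion molecules of neurons, and some hold enhancers that act on a promoter far away.

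A few desert regions touched the promoter window of an annotated gene, and sequences are shown for some of these windows. Promoter activity was not measured. Among the desert regions, 8 (0.681%) touched a RefSeq promoter window of 300 bases, against 64 (1.38%) of the other intergenic regions, which are those outside every protein-coding span and 150 kb or less from one. The rule keeps desert regions away from the promoters of protein-coding genes. The comparison therefore cannot show fewer promoter contacts than the rule brings about. Of these 8, 7 were in the higher list and 1 in the lower list, where the higher list held 67.3% of all desert regions. All 8 genes concerned carry a predicted-gene name, and the sequences are from RefSeq (GRCm38.p6), 5′ to 3′ on the strand of the gene. Capitals mark the bases inside the deposited region, and lower case marks the rest of the window.
Gm32705, chr6:98507623-98507922, plus strand, higher list: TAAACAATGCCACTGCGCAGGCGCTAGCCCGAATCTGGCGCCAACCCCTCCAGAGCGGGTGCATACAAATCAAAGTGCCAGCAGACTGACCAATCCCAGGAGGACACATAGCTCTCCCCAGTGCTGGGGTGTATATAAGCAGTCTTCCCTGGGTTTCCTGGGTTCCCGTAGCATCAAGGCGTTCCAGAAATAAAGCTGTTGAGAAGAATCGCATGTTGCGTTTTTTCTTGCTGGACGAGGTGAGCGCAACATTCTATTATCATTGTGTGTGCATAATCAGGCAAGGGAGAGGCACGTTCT
Gm33197, chr13:57246406-57246705, minus strand, higher list: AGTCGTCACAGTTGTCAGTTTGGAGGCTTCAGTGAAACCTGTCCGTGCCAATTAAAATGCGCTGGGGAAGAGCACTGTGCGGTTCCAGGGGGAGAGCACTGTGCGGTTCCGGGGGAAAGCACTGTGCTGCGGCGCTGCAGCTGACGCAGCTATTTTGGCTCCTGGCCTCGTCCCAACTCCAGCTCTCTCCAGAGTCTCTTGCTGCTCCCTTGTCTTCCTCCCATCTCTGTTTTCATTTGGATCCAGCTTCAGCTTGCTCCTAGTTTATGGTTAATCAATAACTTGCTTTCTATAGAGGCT
Gm33045, chr13:110627722-110628021, plus strand, higher list: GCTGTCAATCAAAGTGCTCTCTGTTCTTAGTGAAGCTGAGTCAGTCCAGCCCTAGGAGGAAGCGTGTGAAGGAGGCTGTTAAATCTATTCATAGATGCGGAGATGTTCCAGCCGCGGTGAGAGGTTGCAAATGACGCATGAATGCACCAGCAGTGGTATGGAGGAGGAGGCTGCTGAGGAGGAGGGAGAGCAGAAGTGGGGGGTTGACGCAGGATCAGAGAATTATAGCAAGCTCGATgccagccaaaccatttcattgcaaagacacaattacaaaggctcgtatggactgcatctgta
Gm34276, chr13:44568594-44568893, minus strand, higher list: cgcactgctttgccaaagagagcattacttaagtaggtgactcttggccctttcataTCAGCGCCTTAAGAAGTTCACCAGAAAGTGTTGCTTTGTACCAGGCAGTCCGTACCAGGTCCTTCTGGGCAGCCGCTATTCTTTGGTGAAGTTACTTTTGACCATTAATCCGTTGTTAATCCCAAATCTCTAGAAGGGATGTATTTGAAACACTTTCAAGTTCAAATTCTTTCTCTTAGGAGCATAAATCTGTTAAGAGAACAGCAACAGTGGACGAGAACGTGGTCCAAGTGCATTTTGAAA
Gm32224, chr14:25127794-25128093, plus strand, lower list: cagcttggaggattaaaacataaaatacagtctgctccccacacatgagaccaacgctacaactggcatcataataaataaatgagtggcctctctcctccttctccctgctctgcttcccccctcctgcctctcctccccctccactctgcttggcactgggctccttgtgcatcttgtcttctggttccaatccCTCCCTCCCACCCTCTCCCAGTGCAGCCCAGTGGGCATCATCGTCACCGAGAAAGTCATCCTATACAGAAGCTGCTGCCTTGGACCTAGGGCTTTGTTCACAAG

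The windows of Gm32705 and Gm33197 lay wholly inside a higher region. The first held 12 CG dinucleotides, in the desert between Gm765 and Foxp1, a forkhead transcription factor gene. The second held 10, in the desert between Trpc7, a cation channel gene, and Spock1, a proteoglycan gene. The motif searched was CG, which reads the same on both strands. Over all 31396 autosomal promoter windows the median was 7 CG and 94.8% held at least 1, and over the 1427 windows that lie in deserts the median was 3 and 87.3% held at least 1. The only lower region at a gene start covered 104 bases of one of the windows of Gm32224, between Rps24, a ribosomal protein gene, and Zmiz1, a transcriptional coregulator gene. The printed windows of Gm33045 and Gm34276 held 8 and 7 CG, and that of Gm32224 held 3. The remaining windows touched were those of Gm2447, Gm35542 and Gm41629, all by higher regions, with 3, 4 and 7 CG.

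Within 5000 bp of a desert region lay 3 microRNA genes, of 48 hairpins in deserts and 919 on the autosomes of the RefSeq table. All 3 were nearest to a region of the higher list, which held 67.3% of all desert regions. The distance was chosen after the values were seen. Their mature sequences follow, 5′ to 3′, with the seed (bases 2 to 8) in capitals.
mmu-miR-135a-5p: uAUGGCUUuuuauuccuauguga
mmu-miR-135a-2-3p: uGUAGGGAuggaagccaugaa
mmu-miR-125b-5p: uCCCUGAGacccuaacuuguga
mmu-miR-125b-1-3p: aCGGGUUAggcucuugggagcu
mmu-miR-101c: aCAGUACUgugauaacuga
No seed is shared among them. The hairpin of Mir135a-2 was 95 bp from a higher region of 200 bp on chromosome 10 between Tmpo, a nuclear lamina protein gene, and Nedd1, a centrosome protein gene. That of Mir125b-1 was 4488 bp from a higher region of 390 bp between Ubash3b and Gm40514. The mature miR-101c was 379 bp from the widest desert region of all, at the start of chromosome 9, which is described further on.

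Deserts were sparsely populated in both directions. Sequence more than 150 kb from a protein-coding gene made up 541.9 Mb, or 22.6% of the autosomal sequence between the first and the last annotated feature, and held 9.38% of the autosomal regions. Its density was 2.17 regions per Mb, of which 1.46 were higher and 0.709 lower. Other intergenic sequence held 5.30 regions per Mb and protein-coding spans 6.82. The median distance of a desert region from the nearest protein-coding end was 267 kb, with quartiles of 198 and 409 kb, and it was 274 kb for higher and 259 kb for lower regions. Beyond 500 kb there were 200 desert regions and beyond 1 Mb there were 61, of which 42 were higher and 19 lower.

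The balance of direction in deserts was close to that of the intergenic regions nearer to genes. The higher list held 67.3% of the desert regions (95% Wilson interval 64.6 to 69.9%) and 65.6% of the 4645 other intergenic regions (64.2 to 66.9%), beside 68.4% of all autosomal regions. The difference was 1.74 percentage points and the odds ratio 1.08 (95% interval 0.943 to 1.24), which did not pass a two-sided Fisher's exact test (p = 0.270, Benjamini-Hochberg adjusted p = 0.270 over 6 tests). Regions are not replicates and neighbours share a chromosome environment, so this test, like those that follow, compares places in the lists and says nothing of the spread between cultures. With regions of one list within 100 kb of each other merged, the higher share was 64.6% of 941 in deserts and 60.0% of 3106 elsewhere. That difference passed Fisher's exact test (odds ratio 1.22, adjusted p = 0.0177). Merging removes more regions where they lie close together, and more of the commoner list, and regions outside deserts were denser. How far this accounts for the difference was not tested. With each desert counted once per list the odds ratio was 0.972.

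The other intergenic regions were not uniform, and the comparison turned on which of them was taken. The higher share was 60.4% within 10 kb of a protein-coding gene, 64.9% from 10 to 25 kb, 68.1% from 25 to 50 kb, 71.2% from 50 to 100 kb and 69.4% from 100 to 150 kb. In deserts it was 62.3% (190 of 305) from 150 to 200 kb, 68.2% to 250 kb, 67.9% to 300 kb, 68.9% to 500 kb and 71.0% (142 of 200) beyond. Within protein-coding spans it was 70.5%. Set against intergenic regions under 50 kb from a gene, deserts were richer in higher regions, with an odds ratio of 1.18 (Fisher's exact test, adjusted p = 0.0381). Set against those from 50 to 150 kb the odds ratio was 0.860 (adjusted p = 0.0897), and set against regions in protein-coding spans it was 0.861 (adjusted p = 0.0444, Fisher's exact test), with a smaller higher share in deserts. These 3 comparisons were added after the values were seen.

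**Figure D1:**
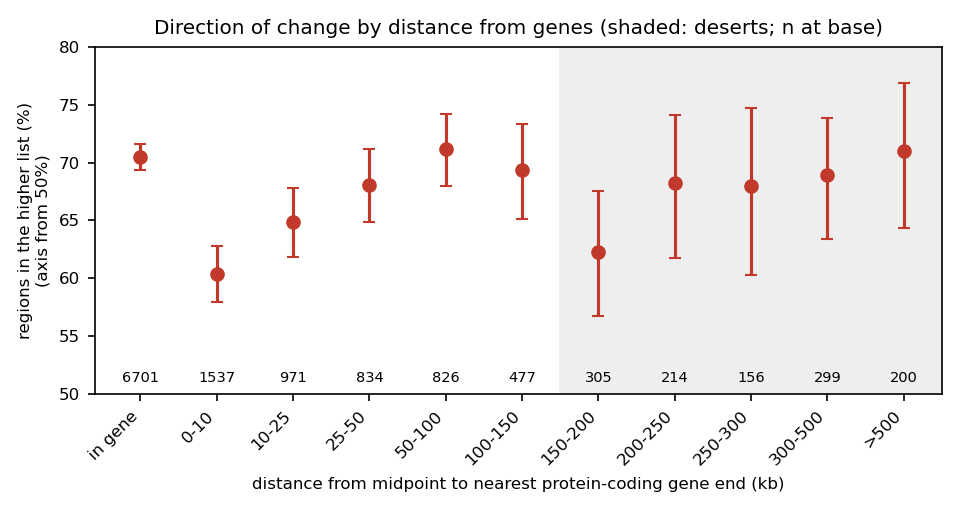
Share of regions in the higher list (percent, with 95% Wilson intervals) by distance from the nearest protein-coding gene, with regions inside such genes at the left. The share is lowest within 10 kb of a gene (60.4%) and the 5 desert bins run from 62.3% to 71.0%.

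Higher regions in deserts were wide less often than higher regions nearer to genes. The median width in deserts was 400 bp in the higher list (quartiles 227 and 728.5 bp) and 300 bp in the lower one (216.75 and 521.5 bp), and it was 521 and 322 bp in other intergenic sequence. The deposited lists hold no region under 200 bp, and 151 higher (19.1%) and 67 lower (17.4%) desert regions were exactly that wide. Width was compared as the share of regions at or above the autosomal median of 456 bp, which 50% of all autosomal regions, and within the lists 56.6% of higher and 35.7% of lower regions, reached. In the higher list the share was 44.6% in deserts (352 of 790) and 55.0% in other intergenic sequence (1674 of 3045), an odds ratio of 0.658 (95% interval 0.562 to 0.770, Fisher's exact test, adjusted p = 5.76e-07).

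In the lower list the difference had the same direction and did not pass: 31.0% of desert regions (119 of 384) and 36.3% of other intergenic regions (581 of 1600) were wide, with an odds ratio of 0.788 (0.620 to 1.00, adjusted p = 0.0750, Fisher's exact test). It passed with the cut at 1 kb, where 19 of 384 desert regions (4.95%) and 170 of 1600 others (10.6%) were wide, an odds ratio of 0.438 (adjusted p = 0.000672, Fisher's exact test). It also passed without chromosome 9, 12 or 14, with odds ratios of 0.763, 0.758 and 0.756. Within deserts, higher regions were wide more often than lower ones, with an odds ratio of 1.79 (1.38 to 2.32, adjusted p = 1.71e-05, Fisher's exact test). It did not pass for deserts beyond 500 kb (odds ratio 1.71, adjusted p = 0.216, Fisher's exact test) or for the 103 regions left where every annotated gene bounds a desert (1.01). With those 103 the lower list's odds ratio against other intergenic regions was 1.09. At 1 kb or more there were 104 higher (13.2%) and 19 lower desert regions. By base pairs, 75.3% of the desert sequence in the lists was in higher regions, against 72.8% elsewhere between genes.

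**Figure D2:**
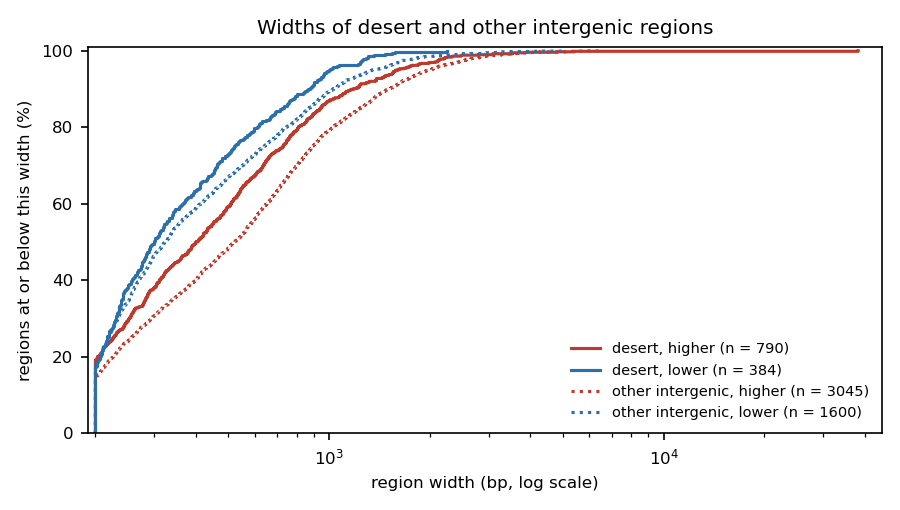
Region widths (bp, log axis) by list in deserts and other intergenic sequence. The medians in deserts, 400 bp in the higher and 300 bp in the lower list, lie below the 521 and 322 bp of other intergenic regions.

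The widest desert region by far was a higher region of 38197 bp at the start of chromosome 9 (3000104 to 3038300), 316 kb from Alkbh8, a tRNA methyltransferase gene, with no protein-coding gene on its other side. It made up 7.68% of all higher desert sequence, and without it the higher share by base pairs was 73.8%. It begins just after the 3 Mb of unsequenced bases that open the autosomes of mm10. Repeats and the mapping of reads at this edge were not examined. The next widest region was 5411 bp wide on chromosome 13 (44007945 to 44013355). It begins before the noncoding gene Gm33489, and its midpoint lay inside that gene, 208 kb from Cd83, which encodes a surface protein of dendritic cells. The other widest higher regions were 4804 bp between Gadd45g, a stress-response gene, and Diras2, 3871 bp in the noncoding gene Gm38413 between Rasgef1b and Vamp9, and 3540 bp between Ndfip2 and Spry2, an inhibitor of receptor tyrosine kinase signalling. The widest lower region was 2245 bp, on chromosome 11 (6899251 to 6901495) and 163 kb from Adcy1, an adenylyl cyclase gene. It was followed by regions of 1573 bp between Rtl1 and Dio3, 1537 bp between Sall3 and Galr1, 1468 bp between Gm47655 and Ice1 and 1363 bp between Nmur2 and Gria1.

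Desert regions also stood farther apart. Another region of either list lay within 100 kb of 562 of the 1174 desert regions (47.9%) and of 3411 of the 4645 other intergenic regions (73.4%), where the share over all autosomal regions was 73.5%. The odds ratio was 0.332 (0.291 to 0.379, Fisher's exact test, adjusted p = 3.23e-59), and the median distance to the next region was 107 kb in deserts and 50.8 kb in other intergenic sequence. The rule places desert regions away from genes, where the density of regions was lower. It also bears on the test itself. A desert midpoint lies more than 150 kb from every protein-coding span. Regions inside such spans, 53.5% of all autosomal regions, could therefore be neighbours within 100 kb of other intergenic regions only. The test thus cannot show more isolation than the rule brings about. Neighbours within one desert shared their direction in 377 of 645 pairs (58.4%, Wilson interval 54.6 to 62.2%), and neighbours within one other intergenic stretch did so in 772 of 1325 (58.3%). Pairs within 100 kb of each other shared it in 182 of 303 in deserts (60.1%) and in 59.5% elsewhere. The unequal size of the lists alone makes shared directions commoner than opposite ones, and the pairs were not tested against that.

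The 19 autosomes held 948 deserts, of which 529 had at least 1 region and 419 had none. The median stretch between the flanking genes was 819 kb with and 425 kb without regions. Of the occupied deserts, 258 held higher regions only, 99 lower regions only and 172 both, and 244 held a single region, which was higher in 69.3% of them. The 54 deserts with 5 or more regions held 333 of them (28.4%), with 67.6% higher. Chromosome 3 had the most desert regions, 68 higher and 33 lower, and chromosome 19 the fewest, 17 and 6. The higher share was largest on chromosome 8, at 79.2% (61 of 77), and smallest on chromosome 11, at 59.0% (36 of 61). Density ran from 1.55 regions per Mb of desert on chromosome 5 to 2.96 on chromosome 18. On 14 autosomes the higher share was above that of the other intergenic regions of the same chromosome, and on 5 it was below.

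**Figure D3:**
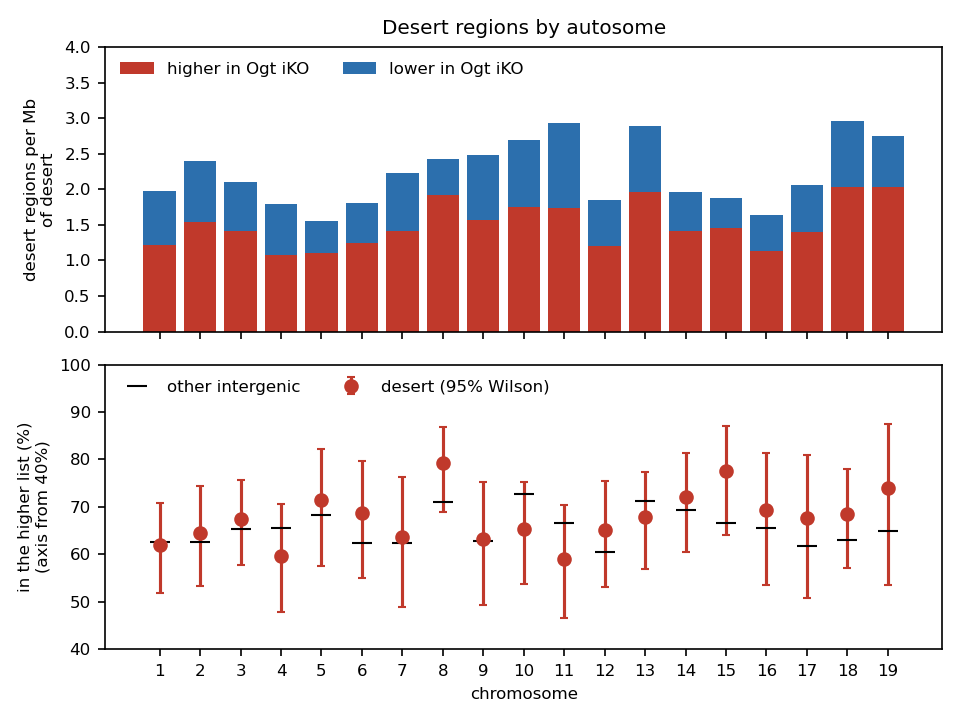
Share of desert regions in the higher list (percent, with 95% Wilson intervals) on each autosome, with the share among other intergenic regions of the same chromosome. Chromosome 8 is highest at 79.2% and chromosome 11 lowest at 59.0%, and the intervals of all 19 autosomes overlap one another.

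The fullest desert was that between Got2, the mitochondrial aspartate aminotransferase gene, and Cdh8, a cadherin gene of neurons, on chromosome 8 (95888402 to 99024470). It held 12 regions, 9 higher and 3 lower, over 3136 kb. Of these, 5 lay within 459 kb of Got2, and the first of the 5, at 190 kb, was lower. A second set of 4, at 1231 to 1393 kb from Got2, had 3 higher regions, 1 of them the widest of the desert at 1553 bp, and 1 lower region. A lower region stood alone 1472 kb from Cdh8. The last 2, at 601 and 812 kb from Cdh8, were higher and 279 and 200 bp wide.

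Next came the desert between Nmbr, the neuromedin B receptor gene, and Cited2, a transcriptional coactivator gene, on chromosome 10, with 8 higher and 3 lower regions over 2952 kb. The desert between Zfp608 and Gramd3 on chromosome 18 held 9 higher regions and 1 lower one. Its lower region was the last before Gramd3, 165 kb from it, and all 9 higher regions lay on the Zfp608 side of it. Zfp608 encodes a zinc finger protein.

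The desert between Cd83 and Jarid2, a subunit of Polycomb repressive complex 2, mixed directions over 928 kb, with 5 higher and 4 lower regions. From Cd83 towards Jarid2 they ran lower, higher, higher, lower, higher, higher, lower, lower and higher, and they included the region of 5411 bp. The last, 256 bp wide and 162 kb from Jarid2, is the one that covers most of the Gm34276 promoter window printed among the sequences. The desert between Foxo1, a forkhead factor gene of insulin signalling, and Cog6, a Golgi complex subunit gene, was the most crowded of these 5. It had 7 higher and 2 lower regions over 632 kb, or 27.1 per Mb of desert, and its widest region was higher and 2220 bp wide.

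**Figure D4:**
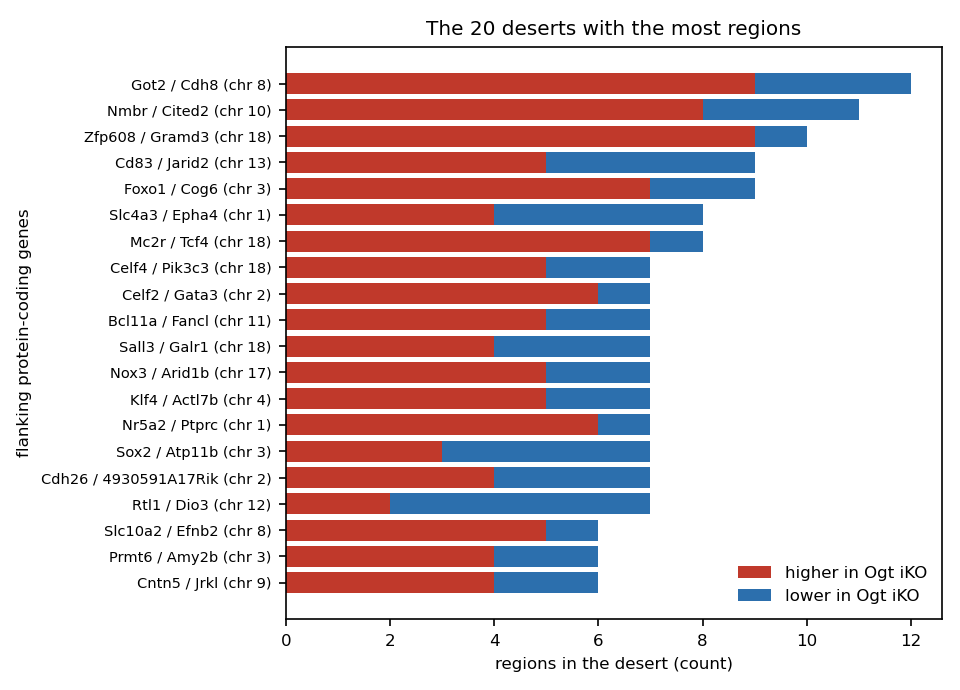
Numbers of higher and lower regions in the 20 deserts with the most regions, named by their left and right flanking genes. The desert between Got2 and Cdh8 leads with 9 higher and 3 lower regions, and both directions occur in all 20.

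Of the 89 deserts with 4 or more regions, 10 held higher regions only and 1 held lower regions only. The higher list held 67.3% of all desert regions, and that share alone would leave some such deserts with higher regions only. The counts were not tested against it. Of the deserts with higher regions only, those between Sall1, a zinc finger factor of kidney and limb development, and Tox3, and between Rnf144b and Id4, an inhibitor of helix-loop-helix factors, held 5 each. A further 7, with 4 each, were Tenm3 to Aga, Trim52 to Slitrk1, Cdh18 to Basp1, Pfkp to Adarb2, Med13l to Tbx3, Slc30a5 to Pik3r1 and Adamts9 to Magi1. The desert with lower regions only lay between Nmur2, a neuromedin U receptor gene, and Gria1, an AMPA receptor subunit gene, on chromosome 11. Its regions were 230, 200, 1363 and 307 bp wide, and the last 3 lay 249 to 301 kb from Gria1.

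The genes on either side were sorted into lists that had been chosen with earlier results of these data known, so the counts are a description. Of the 948 deserts, 89 were flanked by a developmental transcription factor gene of the list, and 58 of those (65.2%) held regions, against 55.8% of all deserts. They had 88 higher and 56 lower regions, 61.1% higher, where all deserts had 67.3%. Deserts beside genes for cadherins, protocadherins, contactins and other adhesion molecules were occupied in 48 of 68 cases, with 102 higher and 38 lower regions, 72.9% higher. Deserts beside axon guidance genes were occupied in 21 of 27, with 31 higher and 22 lower regions, 58.5% higher. Occupied deserts had a longer median stretch than empty ones, 819 kb against 425 kb. Desert length was not matched in the shares occupied. Per Mb of desert, the counts were 2.86 beside developmental factors, 1.32 beside adhesion genes and 1.97 beside axon guidance genes, where all deserts had 2.17.

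A list of genes of pluripotency, O-GlcNAc and TET function flanked 8 deserts, of which 7 held 30 regions, 20 higher and 10 lower, or 7.37 per Mb of desert against 2.17 in all deserts. The 7 lay beside pluripotency genes of the list and none beside an O-GlcNAc or TET gene. Of them, 6 deserts with 23 of the 30 regions are counted among the developmental factors too. The 8 deserts span only 4.07 Mb, where the 68 beside adhesion genes span 106 Mb. Desert length was not matched in these densities. The deserts from Nr5a2, from Klf4 and from Sox2 to Atp11b held 7 regions each. The desert from Nr5a2, a nuclear receptor gene of pluripotent cells, to Ptprc held 6 higher regions and 1 lower one. Of these, 4 higher regions lay within 222 kb of Nr5a2, and they were 694, 431, 939 and 1029 bp wide. From Klf4, a factor used to reprogram cells to pluripotency, to Actl7b there were 5 higher and 2 lower regions, and the 2 lower ones stood next to each other, 378 and 348 kb from Actl7b.

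The desert from Sox2, which encodes a core pluripotency factor, to Atp11b, a phospholipid flippase gene, held 3 higher and 4 lower regions. Counted from Sox2, 2 higher regions at 179.5 and 347 kb were followed by 4 lower ones and then a higher one, 177 kb from Atp11b. The desert on the other side of Sox2, towards Dnajc19, held 1 lower region of 200 bp. Beside Tbx3, a T-box factor gene, there were 4 higher regions 200 to 764 bp wide, and between Klf5 and Klf12, both Krüppel-like factor genes, there were 2 higher regions of 1748 and 200 bp. Beside Otx2, a homeobox factor gene of the early epiblast and brain, there were 2 lower regions of 200 and 528 bp.

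The desert between Rtl1 and Dio3, genes of an imprinted cluster on chromosome 12, had 5 lower and 2 higher regions in 675 kb. The lower regions included the 1573 bp one, 327 kb from Dio3, which encodes a thyroid hormone deiodinase, and one of 1303 bp inside the noncoding gene Gm34554. The higher ones were 1609 and 460 bp wide. Among other deserts with many regions, that between Mc2r and Tcf4, a helix-loop-helix factor gene, held 7 higher regions and 1 lower one, that between Slc4a3 and Epha4, an ephrin receptor gene, 4 of each, and that between Bcl11a, a zinc finger repressor gene, and Fancl 5 higher and 2 lower. These were singled out after their values were seen.

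**Figure D5:**
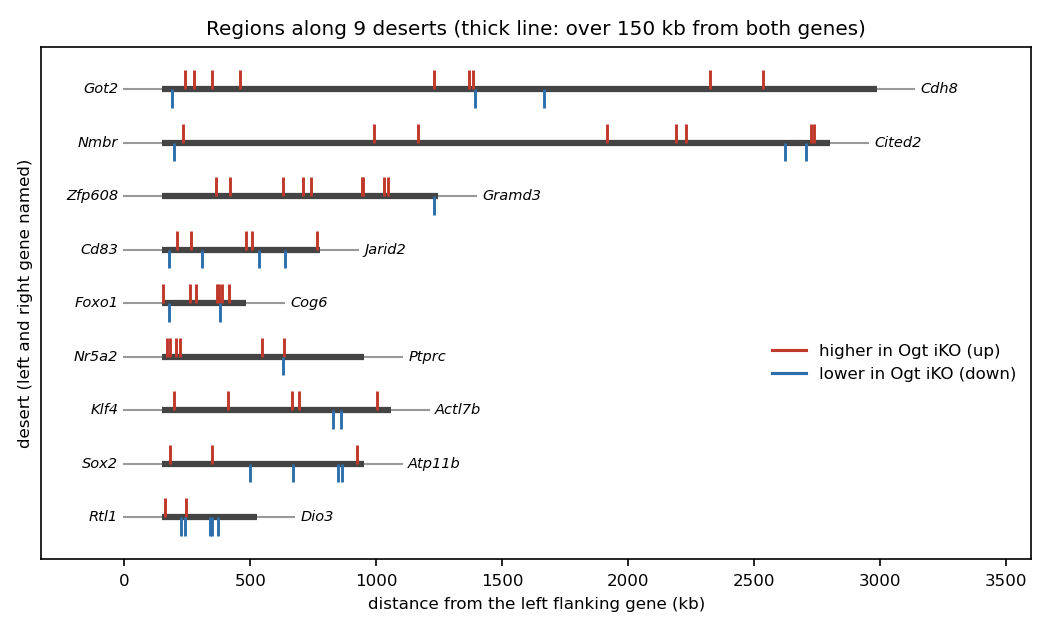
Positions of higher and lower regions along 9 deserts, in kb from the left flanking gene, with the stretch more than 150 kb from both genes as a thick line. Each of the 9 deserts holds regions of both lists, and the 4 lower regions beyond Sox2 lie next to each other.

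Of the regions, the farthest from any protein-coding gene was a lower region of 361 bp on chromosome 18, 2188 kb from Pik3c3, which encodes a lipid kinase of autophagy, in the desert that begins at Celf4. A lower region of 293 bp lay 2071 kb from Cntnap5b, and one of 256 bp 1987 kb from Celf4. The farthest higher regions were 245 bp wide and 1957 kb from Pcdh9, a protocadherin gene, 482 bp wide and 1950.1 kb from Cdh20, and 217 bp wide and 1872 kb from Tenm3, a teneurin gene of synaptic adhesion. At the other end, the regions just inside the limit of 150 kb lay at 150.5 kb from Dusp26 and from Slc25a13 and at 150.6 kb from Gm52259, and those just outside it at 149.98 kb from Cdh26, 149.92 kb from Smlr1 and 149.85 kb from Habp2. All 6 were in the higher list, which held 67.3% of desert and 65.6% of other intergenic regions.

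Deserts defined by protein-coding genes still hold other genes, and 200 desert regions (17.0%) had their midpoint in one, where 10.7% of all autosomal and 17.6% of other intergenic regions did. The share was 18.5% for higher (146 of 790) and 14.1% for lower desert regions (54 of 384). The odds ratio of 1.39 (0.987 to 1.94) did not pass Fisher's exact test (p = 0.0685, adjusted p = 0.0822), and it passed without chromosome 1 (1.49, adjusted p = 0.0461) or chromosome 10 (1.47, adjusted p = 0.0497). The genes were mostly long noncoding RNA genes, with 134 higher and 52 lower overlaps, and pseudogenes had 13 and 5. In all, 181 genes held a region, 20 held 2 or more and 7 held 3 or more.

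The noncoding gene with the most was 5730522E02Rik, in the desert beyond Bcl11a, where 4 higher regions of 362, 970, 2105 and 1506 bp lay along its 594 kb. D130009I18Rik, between Obi1 and Rbm26, held 3 higher regions. Morrbid, a long noncoding RNA gene known to limit expression of the neighbouring proapoptotic gene Bcl2l11, held 2 lower regions of 774 and 523 bp and 1 higher one of 1282 bp. Gm12026, a pseudogene beyond the homeobox gene Meis1, and Gm20757 each held 1 higher and 2 lower regions, and Gm32224 held 2 higher and 1 lower, the lower being the one at its start. By midpoint, the widest regions in long noncoding genes were, beside those in Gm33489 and Gm38413, one of 3080 bp in Gm31147 towards Tcf4 in the higher list. The region at Gm31147 begins before the gene does. In the lower list they were the one in Gm34554, one of 1233 bp in 2610307P16Rik towards Sox4 and one of 1028 bp in 4932435O22Rik.

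Deserts were also grouped by the listed regions inside their flanking protein-coding genes, as a description with no test. Where the flanking gene bodies held higher regions only, 66.0% of 344 desert regions were higher, and where they held lower regions only, 60.5% of 114 were. Where they held both the share was 70.9% of 237, and where they held none it was 68.1% of 479. The Wilson intervals of these shares, 60.8 to 70.8%, 51.4 to 69.0%, 64.8 to 76.3% and 63.8 to 72.1%, all overlapped.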

How the data were processed

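The values are region coordinates in 2 lists that the authors deposited, on mm10, with no signal, fold or p-value. Bismark and MACS2 are named in the submitters' processing notes. Their settings, the differential test, its threshold and the use of inputs are not given in the sources used here. Starts were read as 0-based and are printed 1-based. The list name adds a letter to the knockout and was read as Ogt iKO.

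Spans of 20558 autosomal protein-coding genes came from a RefSeq table (GRCm38.p6) of 49997 genes. 333 rows with an autosome label that lie on scaffolds or patches were left out. Places were assigned by midpoint. Fisher's exact tests (scipy 1.17.1, Python 3.11.15) were adjusted by Benjamini-Hochberg over 6 tests at 0.05. Single alternatives were adjusted within the same 6. Lookups were checked on 300 of the deposited autosomal regions, and 300 of 300 matched a direct search.

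The members and gene lists were chosen with earlier results of these data known. The rule for named items took the 5 fullest deserts, the 5 widest and 3 farthest regions of each list, the 3 on each side of 150 kb, deserts with 4 or more regions of 1 list, extreme chromosomes, the 3 widest regions of each list in noncoding genes, and the flanking gene lists. Region sequences, base composition and repeats were not analysed here. One desert that the rule names is not reported here.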

Additional observations from a re-analysis of the deposited data

How the results depend on the processing

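Across 176 alternatives to the 6 tests, 161 left direction and call as reported, and the cause of the others was not tested. Most of the 176 leave out a single chromosome, 19 for each test, and change the data little. Outside those, the direction balance kept direction and call in 11 alternatives, reversed in 3 and passed in the same direction in 2. The balance of direction against other intergenic regions had an odds ratio of 1.22 with regions within 100 kb merged, 0.972 with 1 count per desert and list, 1.18 against regions under 50 kb from a gene, 0.860 against those at 50 to 150 kb and 0.861 against gene spans. It ran from 1.06 to 1.11 leaving out each chromosome. The wide share in the lower list had an odds ratio of 0.777 with deserts beyond 100 kb, 0.438 at 1 kb and 1.09 where every annotated gene bounds deserts, which left 103 regions. It ran from 0.756 to 0.815 without each chromosome. The wide share of higher against lower desert regions was 1.71 beyond 500 kb (200 regions) and 1.01 with every annotated gene, both not called, and ran from 1.65 to 1.90 without each chromosome. Without each chromosome the noncoding overlap ran from 1.29 to 1.49, the wide share in the higher list from 0.618 to 0.678 and company from 0.319 to 0.340. Under the other alternatives the noncoding overlap was 1.18 (deserts beyond 100 kb) to 2.09 (beyond 500 kb), never called, and the wide share in the higher list 0.523 (every annotated gene) to 0.715 (beyond 100 kb), always called. Company, always called but partly settled by the rule, was 0.113 within 500 kb and 0.505 within 10 kb. It was 0.132 with deserts beyond 500 kb and 0.152 with every annotated gene. The member count was 1651 at 100 kb, 655 at 250 kb and 200 at 500 kb. No paired analysis was possible because the lists hold no values per sample, and no replicate could be left out for the same reason. Depth is unknown, so a lack of regions in a desert cannot be told apart from a lack of coverage.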

Other observations

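The definition by protein-coding genes places an antigen receptor locus among the deserts. The T cell receptor alpha locus, Tcra, whose segments are joined in T cells, is not annotated as protein-coding, and 3 desert regions lay in it on chromosome 14: a lower one of 592 bp (53739010 to 53739601) and 2 higher ones of 200 bp each (53835855 to 53836054 and 53901701 to 53901900).

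At chromosome ends, 9 deserts had a protein-coding gene on one side only. They held 8 regions, 6 higher and 2 lower. Chromosome 13 had 2 higher regions and 1 lower one before Gdi2, chromosome 3 had 1 of each before Hnf4g, a nuclear receptor gene, and chromosomes 9, 12 and 16 had 1 higher region each. That on chromosome 12 was 1770 bp wide and 229 kb from Rab10, and that on chromosome 9 was the one of 38197 bp. These coordinates are from the authors' deposited table of regions.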
